A study of Rattus norvegicus with 6 samples.

Results

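The genes described here carry long-chain fatty acids from the blood into the mitochondrial matrix of the heart and degrade them there. They were taken as a list of 37 gene symbols covering uptake, activation, the carnitine shuttle, beta-oxidation, electron transfer, the peroxisome and lipolysis. Of these, 36 stood on the deposited table of 17487 symbols, each on 1 row, and 35 passed the filter on low counts that left 9205 symbols to test. Hearts came from 6 adult male Wistar rats, an outbred laboratory strain, with 1 mRNA library per animal. The doxorubicin group (3 rats) received doxorubicin hydrochloride, an anthracycline used in chemotherapy that is known to harm the heart, at 3.75 mg/kg through a tail vein once a week over 4 weeks. The control group (3 rats) was injected with 0.9% sodium chloride, the vehicle, on that schedule. Which part of the heart was taken and how long after the last dose were not given in the sources used here.

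The adult heart draws most of its energy from fatty acids. Lipoprotein lipase frees them from circulating triglyceride, carriers take them into the cardiomyocyte, and acyl-CoA synthetases bind them to coenzyme A. The acyl group crosses the inner mitochondrial membrane on carnitine. Each turn of the beta-oxidation spiral (dehydrogenation, hydration, a further dehydrogenation, thiolysis) then removes an acetyl unit, with electrons passed to the respiratory chain partly through the electron transfer flavoprotein.

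Between 2219685 and 3508282 reads were counted per library. Levels are given as CPM, counts scaled to a common library total with TMM factors, and 3 counts, taken as the smallest detectable level, made 0.855 to 1.35 CPM before that scaling. The smallest count of a tested member in any library was 20, for Ehhadh, and the next smallest minimum was 47, for Cd36. Cardiomyocyte markers were abundant in each library, and their summed level over 11 genes was lower in doxorubicin hearts (102148 to 114855 CPM) than in control hearts (120357 to 138026 CPM). That separation of the sums depended on Myh6, the alpha myosin heavy chain (log2 fold change -0.73, SE 0.25), whose own values overlapped between the groups. Without Myh6 the sum was 94064 to 119217 CPM in controls and 90076 to 99143 CPM after doxorubicin, with overlap, while leaving out any other of the 11 markers kept the groups apart. Of the 11 markers, 8 had a log2 fold change below 0, with a median of -0.11, and Mybpc3, Pln and Myoz2 were above 0. Myh6 was not the only lower marker. Tnni3 (-0.45, SE 0.20) and Tnnt2 (-0.11, SE 0.17) had all doxorubicin values below all control values, as had 7.06% of all tested symbols. Myl3 was at -0.39 (SE 0.22), with overlap. Control library 1 stood apart in hemoglobin transcripts (Hba-a1, Hba-a2 and Hbb summed to 6843 CPM, against 634 to 2460.2 CPM in the other 5 libraries) and in the atrial light chain Myl7 (164 CPM, against 2.06 to 6.42). The atrial light chain Myl4 was also highest there, at 68.4 CPM against 5.3 to 26 CPM. Control library 3 shared the atrial gene Sln, which failed the filter on low counts. Sln had 60, 0 and 59 counts in controls 1, 2 and 3 and 6, 1 and 0 after doxorubicin. Doxorubicin library 1 stood apart in Nppa, the atrial natriuretic peptide that stressed ventricles also make, with 3252 CPM against 161 to 902 CPM in the others.

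Most of the fatty acid genes were lower in the doxorubicin hearts, by amounts that did not pass the adjusted test for any single gene. The log2 fold change (doxorubicin against control) was below 0 for 30 of the 35 tested members (85.7%), against 47.9% of all tested symbols. Its median was -0.27 over the members, with a range of -0.97 to 0.16, and 0.02 over all tested symbols. With edgeR's quasi-likelihood test and Benjamini-Hochberg adjustment over all symbols, 0 members had an adjusted p under 0.05, against 0.0543% of all symbols, and the smallest adjusted p was 0.125. At an unadjusted p under 0.05, 8 members were lower (22.9%), against 4.11% of all symbols, and 0 were higher, against 4.00%. All 3 doxorubicin values lay below all 3 control values for 11 members (31.4%), against 7.06% of all symbols, and above them for 0 members, against 6.39%. DESeq2 called 1 member at the adjusted threshold, Acads, and 76 of all 9205 symbols. Without the filter on low counts edgeR called the same member and 61 of 13050 symbols. The main fit called 5 of 9205.

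**Figure D1:**
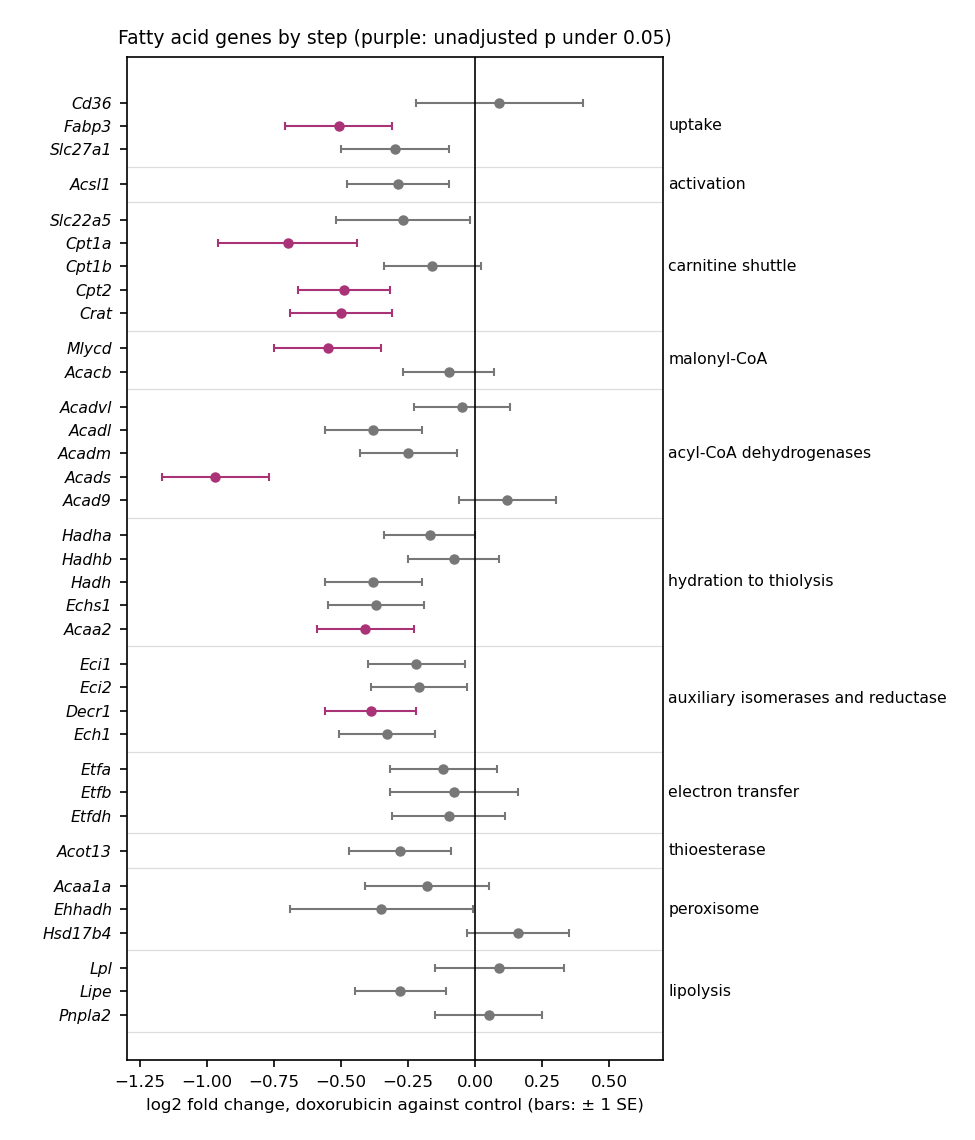
Log2 fold change of each of the 35 tested members, doxorubicin against control, ordered by step; points are edgeR estimates, bars are 1 SE to each side, and purple marks an unadjusted p under 0.05. The estimates run from -0.97 for Acads to 0.16 for Hsd17b4, and 30 of the 35 lie left of 0.

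Abundant genes leaned the same way, and nearly all of the members are abundant. Among the 1741 tested symbols with a mean level of at least 100 CPM, 60.6% had a log2 fold change below 0, with a median of -0.07, and 8.44% were lower at an unadjusted p under 0.05. The 30 members at that level had 86.7% below 0, a median of -0.26 and 23.3% lower at an unadjusted p under 0.05. All doxorubicin values lay below all control values for 12.6% of the 1741 symbols and for 11 of these 30 members (36.7%). In bulk tissue, fewer cardiomyocytes and less RNA of these genes per cardiomyocyte cannot be told apart, and the part of cardiomyocyte content in these differences was not tested. The marker sum, which overlapped between the groups without Myh6, gives no clear measure of it.

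**Figure D2:**
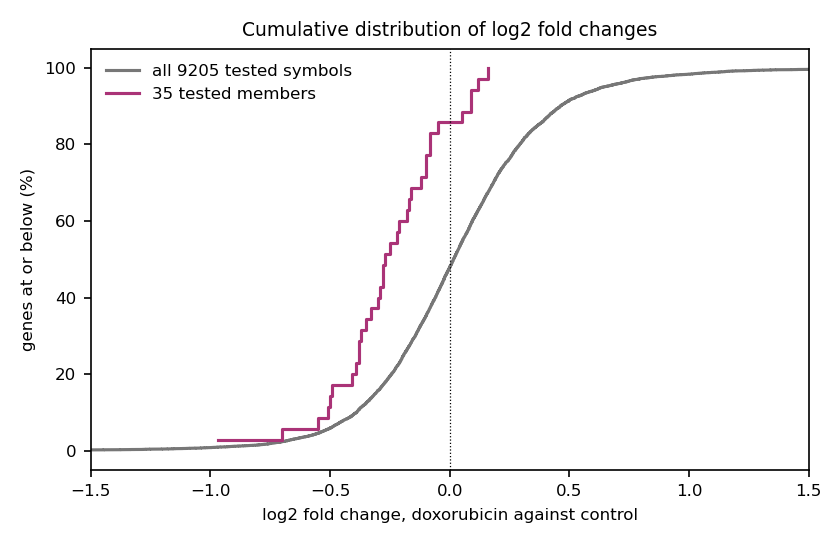
Cumulative distribution of log2 fold changes (doxorubicin against control) for the 35 tested members and for all 9205 tested symbols; the height is the percentage of genes at or below each value. The members' curve lies to the left, with medians of -0.27 and 0.02.

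The 3 doxorubicin animals did not differ from control to the same extent. Relative to the control mean on the log2(CPM + 1) scale, the median over the 35 members was 0.03, -0.03 and -0.01 in controls 1, 2 and 3 and -0.36, -0.17 and -0.29 in the same order after doxorubicin. The medians of the groups did not overlap, and doxorubicin library 2 was the nearest to control. In doxorubicin libraries 1, 2 and 3, respectively, 25, 16 and 22 of the 35 members lay below all 3 control values. These counts compare the libraries only, as they were not made over all tested symbols. The median over all tested symbols was 0.01 in each doxorubicin library. Doxorubicin library 1 had the lowest doxorubicin value for 19 members, library 2 for 4 and library 3 for 12. Without control library 1, 9 members were lower at an unadjusted p under 0.05, against 2.65% of all symbols in that fit. Without doxorubicin library 1 the count at an unadjusted p under 0.05 was 1, Acads alone, against 2.88% of all symbols lower in that fit, and the median was -0.23. Without control library 3 the count was 4 (Cpt2, Crat, Mlycd and Acads), against 3.35% of all symbols. It was 5 without doxorubicin library 2 and 5 without doxorubicin library 3, against 4.39% and 2.82% of all symbols. Without control library 2, 17 members were below control with no overlap in place of 11, against 13.3% of all symbols. With scaling to library size alone, 5 members were lower at an unadjusted p under 0.05, against 2.46% of all symbols, and the median was -0.19, with 0.10 over all symbols.

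**Figure D3:**
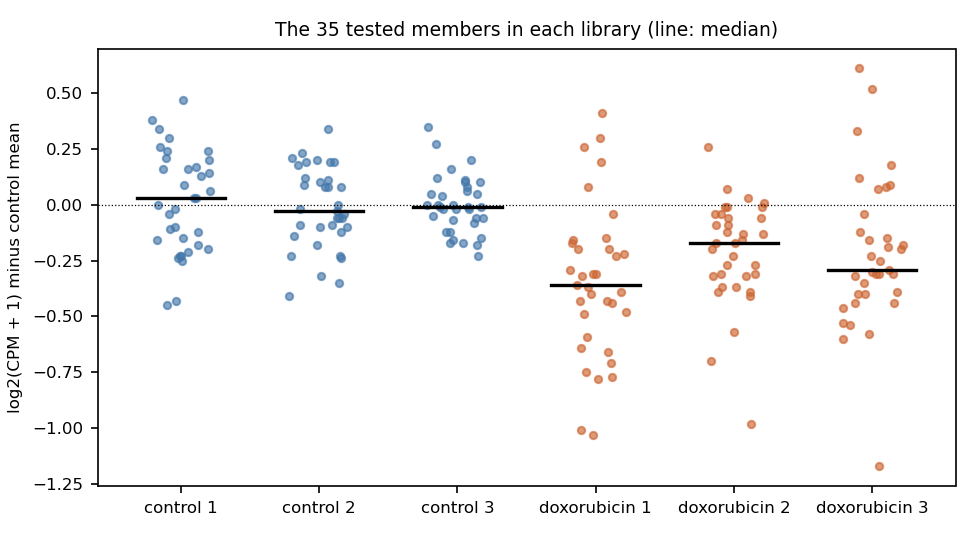
Each of the 35 tested members in each of the 6 libraries, as log2(CPM + 1) minus the mean of the 3 control libraries; points are genes and lines are medians over the genes. The medians lie at -0.03 to 0.03 in control and at -0.36 to -0.17 in doxorubicin libraries.

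Among the uptake genes, Fabp3, the heart type fatty acid binding protein that carries fatty acids through the cytosol, was lower in doxorubicin hearts. It measured 5161, 3719 and 4306 CPM in controls 1, 2 and 3 and 2534, 3701 and 3016 CPM in the doxorubicin libraries in that order. The groups did not overlap, though doxorubicin library 2 lay just under control library 2. Its log2 fold change was -0.51 (SE 0.20, adjusted p 0.512 in edgeR's quasi-likelihood test). Slc27a1, a fatty acid transport protein that also activates its cargo, averaged 159 ± 36.5 CPM in controls and 129 ± 9.14 CPM after doxorubicin (SD, n = 3), with overlapping groups. Cd36, the fatty acid translocase of the plasma membrane, measured 22.1, 25.3 and 31.8 CPM in controls and 15.1, 31.5 and 38.0 CPM after doxorubicin. Doxorubicin library 1 was the lowest of the 6 for Cd36 and doxorubicin library 3 the highest, so the log2 fold change of 0.09 (SE 0.31) was smaller than the spread between replicates. Cd36 rested on 47 to 129 counts per library, which is few for a transporter known to be plentiful in heart muscle, and how reads shared with similar loci were counted was not stated.

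Acsl1, the main long-chain acyl-CoA synthetase of the heart, was the single member for activation. Its level was 1193, 1565 and 1367 CPM in controls and 979, 1193 and 1193 CPM after doxorubicin. The highest doxorubicin values reached the lowest control value, and its log2 fold change was -0.29 (SE 0.19). The thioesterase Acot13, which reverses activation by splitting acyl-CoA, measured 227, 177 and 168 CPM in controls and 139, 178 and 152 CPM after doxorubicin, with overlap and a log2 fold change of -0.28 (SE 0.19). Without control library 1 the Acot13 value was -0.14, and without control library 2 that of Acsl1 was -0.18.

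All 5 genes of the carnitine shuttle had a log2 fold change below 0, against 47.9% of all tested symbols, with a median of -0.49. Of the 5, 3 were lower at an unadjusted p under 0.05, against 4.11% of all tested symbols. Cpt2, the inner membrane transferase that returns the acyl group to coenzyme A, measured 393, 418 and 380.0 CPM in controls and 255, 302 and 292 CPM after doxorubicin. The lowest control value was well above the highest doxorubicin value, and Cpt2's log2 fold change was -0.49 (SE 0.17, adjusted p 0.438 in edgeR). Crat, the carnitine acetyltransferase that buffers acetyl-CoA in the matrix, measured 1069, 1071 and 885 CPM in controls and 590.3, 776 and 767 CPM after doxorubicin. Its groups did not overlap either, with a log2 fold change of -0.50 (SE 0.19, adjusted p 0.477 in edgeR). Slc22a5, the plasma membrane carnitine transporter, had overlapping groups on 65 to 113 counts per library and a log2 fold change of -0.27 (SE 0.25).

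Carnitine palmitoyltransferase I, the outer membrane enzyme that commits fatty acids to oxidation, has a liver type form (Cpt1a) and a muscle type form (Cpt1b). Cpt1a measured 64.2, 92.0 and 110.5 CPM in controls and 42.7, 43.4 and 78.1 CPM after doxorubicin. Doxorubicin libraries 1 and 2 were below all control values, while doxorubicin library 3 was above control library 1. The log2 fold change of Cpt1a was -0.70 (SE 0.26, adjusted p 0.487 in edgeR) and ranged from -1.04 to -0.51 over the fits that left out 1 library. Cpt1b measured 1056, 883 and 955 CPM in controls and 787, 935 and 859 CPM after doxorubicin, with overlap and a log2 fold change of -0.16 (SE 0.18). Cpt1a made up 5.73% (Wilson 95% interval 4.94 to 6.63), 9.43% (8.28 to 10.7) and 10.4% (9.44 to 11.4) of the Cpt1a and Cpt1b counts in control libraries 1, 2 and 3. The share was 5.14% (4.36 to 6.06), 4.43% (3.76 to 5.21) and 8.33% (7.42 to 9.34) in the doxorubicin libraries in that order. The group means were 8.51% ± 2.46 and 5.97% ± 2.08 (SD, n = 3), and the groups overlapped, with a 2-sided exact permutation p of 0.2 where 0.1 is the smallest possible. The difference of -2.54 percentage points was -3.93 without control library 1, -3.72 without doxorubicin library 3 and -1.61 without control library 3.

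Malonyl-CoA inhibits carnitine palmitoyltransferase I, and 2 members set its level at the mitochondrion. Mlycd, the decarboxylase that removes malonyl-CoA, measured 379.6, 249 and 262 CPM in controls and 184, 233 and 192 CPM after doxorubicin. The groups did not overlap, control library 1 was far above the other controls, and edgeR gave a log2 fold change of -0.55 (SE 0.20, adjusted p 0.477), or -0.33 (SE 0.16) without control library 1. Acacb, the mitochondrial acetyl-CoA carboxylase that makes malonyl-CoA, averaged 359 ± 22.8 CPM in controls and 336 ± 18.1 CPM after doxorubicin (SD, n = 3), with overlap and a log2 fold change of -0.10 (SE 0.17).

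**Figure D4:**
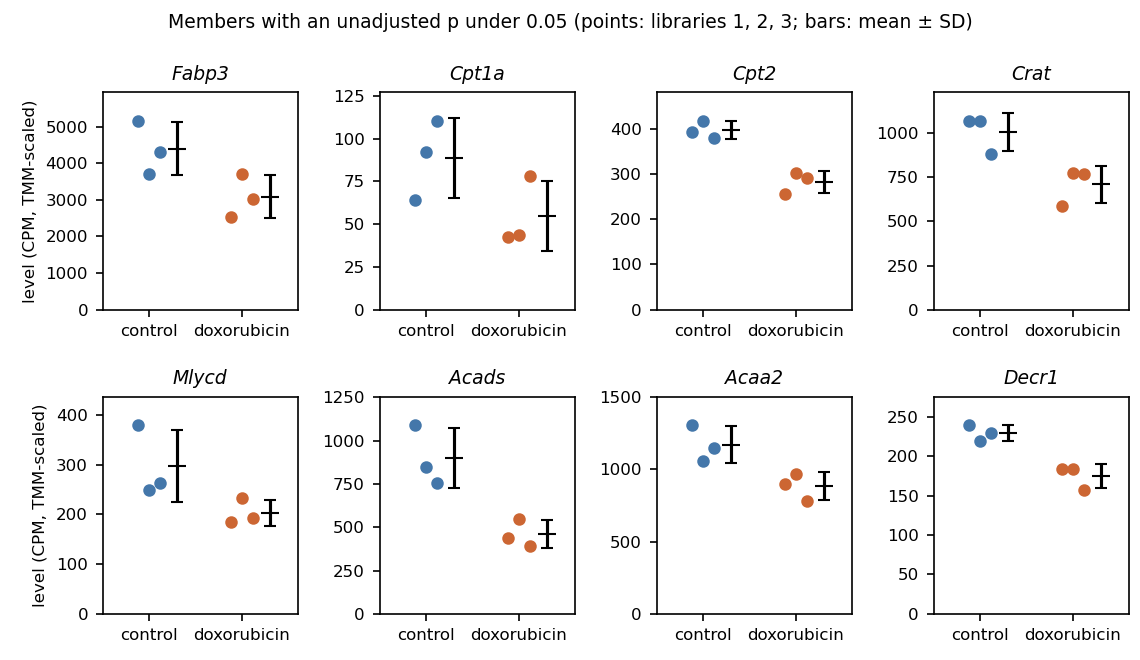
Levels in CPM of the 8 members with an unadjusted p under 0.05; points are libraries 1, 2 and 3 of each group from left to right, and black bars are the mean and SD of 3 libraries. The doxorubicin points lie below all control points in 7 of the 8 panels, Cpt1a being the exception.

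The acyl-CoA dehydrogenases, which open each turn of the spiral and divide the work by chain length, had log2 fold changes from -0.97 to 0.12. Acads, the short-chain enzyme, had the largest difference of all members. It measured 1091, 850.3 and 757 CPM in controls 1, 2 and 3 and 436, 548 and 394 CPM in the doxorubicin libraries in that order. The highest doxorubicin value was well under the lowest control value, and the fitted level in doxorubicin hearts was 51.1% of control. Its log2 fold change was -0.97 (SE 0.20) with an adjusted p of 0.125 in edgeR, at rank 18 of the 9205 symbols by p. The adjusted p was 0.00222 in DESeq2 and 0.0118 in edgeR without the filter on low counts, and it lay between 0.00222 and 0.353 over 17 alternative fits. Acads was the only member at an unadjusted p under 0.05 in all 17 of them, with a log2 fold change between -1.10 and -0.80.

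The other dehydrogenases were closer to control. Acadl, the long-chain enzyme, measured 2099, 2579 and 2152 CPM in controls and 1715, 1827 and 1714 CPM after doxorubicin. Its groups did not overlap, with a log2 fold change of -0.38 (SE 0.18, adjusted p 0.615 in edgeR). Acadm, the medium-chain enzyme, measured 1403, 1799 and 1577 CPM in controls and 1424, 1317 and 1277 CPM after doxorubicin, so that doxorubicin library 1 lay above control library 1. Acadvl, the very long-chain enzyme of the inner membrane, was nearly level, at 788 ± 69.4 CPM in controls and 759 ± 67.6 CPM after doxorubicin (SD, n = 3). Acad9, a relative known mainly for the assembly of respiratory complex I, averaged 128 ± 19.3 and 140.0 ± 8.82 CPM (SD, n = 3) and had a log2 fold change of 0.12 (SE 0.18). Acad10, another relative, is not analysed here because its symbol was not among those of the table used.

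The 5 tested enzymes from hydration to thiolysis were all below control by their fitted values, against 47.9% of all tested symbols. Their median log2 fold change was -0.37. Echs1, the short-chain enoyl-CoA hydratase, measured 1142, 929 and 914 CPM in controls and 801, 797 and 719.7 CPM after doxorubicin, with no overlap and a log2 fold change of -0.37 (SE 0.18). Hadh, the hydroxyacyl-CoA dehydrogenase of the matrix, measured 1339, 1172 and 1102 CPM in controls and 799, 916 and 1052 CPM after doxorubicin, again with no overlap and a log2 fold change of -0.38 (SE 0.18). Acaa2, the matrix thiolase that cuts off acetyl-CoA, measured 1309, 1056 and 1149 CPM in controls and 900.1, 970.4 and 779.9 CPM after doxorubicin. All doxorubicin values of Acaa2 were below control, its log2 fold change being -0.41 (SE 0.18, adjusted p 0.589 in edgeR).

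Hadha and Hadhb encode the subunits of the trifunctional protein, which takes long chains through hydration, dehydrogenation and thiolysis at the inner membrane. Hadha averaged 1270.3 ± 49.1 CPM in controls and 1127 ± 94.3 CPM after doxorubicin, and Hadhb 1799 ± 145 and 1699 ± 119.6 CPM (SD, n = 3). The groups overlapped for both, with log2 fold changes of -0.17 (SE 0.17) and -0.08 (SE 0.17). The log2 ratio of Hadha to Hadhb counts was -0.39, -0.54 and -0.57 in controls and -0.53, -0.53 and -0.71 after doxorubicin. The ratios overlapped between the groups, with a 2-sided exact permutation p of 0.6.

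Hsd17b10, a further hydroxyacyl-CoA dehydrogenase of the matrix, was listed at 0 in all 6 libraries, and this says nothing about its transcript. Hsd17b10 lies on chromosome X, and 490 of the 492 protein-coding symbols of the table that the GRCr8 gene list places on chromosome X were listed at 0 in each library (99.6%), against 14.2% of 14492 on the autosomes. Genes that every cell uses, such as Hprt1 and Pgk1, were among them. Acsl4, a long-chain acyl-CoA synthetase of the wider lipid list below, is also X-linked and was listed at 0.

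The auxiliary enzymes, which prepare unsaturated acyl chains for the spiral, had log2 fold changes between -0.39 and -0.21. Decr1, the dienoyl-CoA reductase, measured 239.8, 219.9 and 229 CPM in controls and 184, 184 and 157 CPM after doxorubicin. The controls lay close together and above all doxorubicin values, and its log2 fold change was -0.39 (SE 0.17, adjusted p 0.579 in edgeR). Ech1, a dienoyl-CoA isomerase, measured 1332, 1021 and 1136 CPM in controls and 821, 1029.7 and 927 CPM after doxorubicin, so that doxorubicin library 2 reached the lowest control. The enoyl-CoA isomerases Eci1 and Eci2 averaged 337 ± 55.0 and 222 ± 30.6 CPM in controls and 289 ± 22.7 and 193 ± 5.04 CPM after doxorubicin (SD, n = 3), each with overlap.

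The 3 electron transfer genes had a median log2 fold change of -0.10. Etfa and Etfb encode the subunits of the electron transfer flavoprotein, and Etfdh the oxidoreductase that hands its electrons to ubiquinone. Etfa measured 758, 805 and 663 CPM in controls and 888, 570.4 and 595 CPM after doxorubicin. Doxorubicin library 1 was the highest of the 6 and the other doxorubicin libraries the lowest, with a log2 fold change of -0.12 (SE 0.20) that was 0.01 without doxorubicin library 2 and -0.34 without doxorubicin library 1. Etfb and Etfdh overlapped between groups, at log2 fold changes of -0.08 (SE 0.24) and -0.10 (SE 0.21). The log2 ratio of Etfa to Etfb counts was -0.31, 0.66 and 0.02 in controls and 0.08, -0.17 and 0.21 after doxorubicin, and the difference was smaller than the spread between replicates (2-sided exact permutation p of 0.9). The 3 ratios tested within the pathway had Benjamini-Hochberg adjusted exact permutation p-values of 0.6 to 0.9.

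The peroxisome shortens very long and branched chains. Hsd17b4, its multifunctional hydratase and dehydrogenase, had the highest log2 fold change of all members, 0.16 (SE 0.19), with 151, 199 and 162 CPM in controls and 225, 168 and 178 CPM after doxorubicin. Doxorubicin library 1 was above all controls and the other 2 lay among them. Ehhadh, the bifunctional enzyme that is a known target of the nuclear receptor PPAR alpha, measured 9.16, 12.9 and 11.6 CPM in controls and 6.42, 8.11 and 11.8 CPM after doxorubicin. These rest on 20 to 41 counts per library, and the log2 fold change of -0.35 (SE 0.34) lay within the spread between replicates. It was -0.61 without doxorubicin library 3 and -0.16 without doxorubicin library 1. Acaa1a, the peroxisomal thiolase, averaged 38.1 ± 7.68 and 33.9 ± 5.67 CPM (SD, n = 3). Acaa1a has a close copy, Acaa1b, and how reads shared by both were counted was not stated.

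The 3 lipolysis genes had log2 fold changes on both sides of 0. Lipe, hormone-sensitive lipase, measured 165, 179 and 194 CPM in controls and 133, 165 and 146 CPM after doxorubicin, with doxorubicin library 2 just under control library 1 and a log2 fold change of -0.28 (SE 0.17). Pnpla2, adipose triglyceride lipase, which opens the breakdown of stored triglyceride, measured 583, 486 and 499.8 CPM in controls and 420.2, 547 and 655 CPM after doxorubicin. Lpl, lipoprotein lipase, measured 2211, 2761 and 2755 CPM in controls and 1956, 2341 and 3916 CPM after doxorubicin. For both Pnpla2 and Lpl doxorubicin library 1 was the lowest of the 6 and doxorubicin library 3 the highest, as for Cd36, and the log2 fold changes were 0.05 (SE 0.20) and 0.09 (SE 0.24). Cd36, Lpl and Pnpla2 were the 3 members above all controls in doxorubicin library 3.

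Cd36 and Lpl are also made by endothelial cells and fat cells, so the markers of both were looked at. The adipocyte genes Plin1, Cidec, Lep and Retn had at most 2 counts in any library, and Adipoq had at most 7 and Pck1 at most 4. Cfd, also made by other cells, had 23, 18 and 19 counts in controls and 37, 51 and 21 counts after doxorubicin, with overlap and a log2 fold change of 0.63 (SE 0.40). The remaining adipocyte markers were Lpl itself and Fabp4, which is described with the wider list and was lower. The sum over all 9 adipocyte markers was 3293 to 3760.3 CPM in controls and 2709.5 to 4558 CPM after doxorubicin, most of it Lpl and Fabp4. The summed level of 10 endothelial markers was 1419 to 1678 CPM in controls and 1221 to 1669 CPM after doxorubicin, 5 markers being lower and 5 higher, with the lowest sum in doxorubicin library 3. Of the 10, 2 had an unadjusted p under 0.05 in edgeR, and both were lower, against 4.11% of all symbols. These were Cldn5 (log2 fold change -1.15, SE 0.27) and Tie1 (-0.48, SE 0.20), each without overlap, and 0 endothelial markers passed the adjusted threshold. The part of these cells in the levels of Cd36 and Lpl was not tested. Macrophage markers were higher in doxorubicin libraries by their sum over 11 genes, 329.9 to 541 CPM against 275 to 299 CPM, with doxorubicin library 2 the highest, and 7 fibroblast markers summed to 2057 to 3519.5 CPM against 2539 to 2813 CPM.

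A wider list of 80 lipid genes held 62 tested symbols. Of these, 37 had a log2 fold change below 0 (59.7%), against 47.9% of all tested symbols, with a median of -0.17. At an unadjusted p under 0.05, 9 were lower (14.5%) and 3 higher, against 4.11% and 4.00% of all symbols, and 1 passed the adjusted threshold, against 0.0543%. That gene was Ucp3, a mitochondrial carrier known to rise with fatty acid supply, which measured 35.5, 30.7 and 52.5 CPM in controls and 2.89, 8.74 and 6.19 CPM after doxorubicin (log2 fold change -2.73, SE 0.35, adjusted p 0.0194 in edgeR). Leaving out control library 1 or 3, or doxorubicin library 1 or 3, left 0 genes of the wider list past it. Pdk4, the kinase that closes the pyruvate dehydrogenase complex when fat is burned, measured 133, 119 and 259.6 CPM in controls and 37.2, 60.2 and 67.2 CPM after doxorubicin, with an adjusted p of 0.0791 in edgeR that passed in DESeq2. Slc25a20, the carrier that exchanges acylcarnitine for carnitine between Cpt1 and Cpt2, measured 423, 425 and 413 CPM in controls and 298, 330.4 and 330.1 CPM after doxorubicin, a log2 fold change of -0.40 (SE 0.17). Fabp4, a binding protein of fat and endothelial cells, had a log2 fold change of -0.44 (SE 0.18), with no overlap between groups.

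Genes of the lipid droplet and triglyceride synthesis were among the others at an unadjusted p under 0.05. Plin5, which ties the droplet to mitochondria in oxidative tissue, averaged 82.6 ± 16.9 CPM in controls and 46.3 ± 15.9 CPM after doxorubicin (SD, n = 3), with doxorubicin library 2 among the controls. Cidea, a droplet protein, measured 135, 123 and 148 CPM in controls and 92.8, 83.3 and 77.8 CPM after doxorubicin, a log2 fold change of -0.68 (SE 0.18, adjusted p 0.202 in edgeR). Dgat1, which makes triglyceride, and Nudt19, a peroxisomal hydrolase of coenzyme A, were lower by log2 fold changes of -0.47 (SE 0.19) and -0.52 (SE 0.20). Angptl4, an inhibitor of lipoprotein lipase, had a log2 fold change of -1.83 (SE 0.49) on as few as 3 counts in a library. Plin2, the general droplet coat protein, was higher in each doxorubicin heart, with 207, 141 and 139 CPM against 109, 133 and 114 CPM and a log2 fold change of 0.45 (SE 0.20). The other genes of the wider list that were higher at an unadjusted p under 0.05 were Acad11, an acyl-CoA dehydrogenase, at 0.50 (SE 0.23), and Esrrg, an estrogen-related receptor, at 0.73 (SE 0.33), each with overlap; they fall outside the 10 smallest p-values and were named after their values were seen. Each of these 8 genes missed the adjusted threshold in edgeR.

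Promoter sequences were looked at because the members leaned in one direction. RefSeq promoter windows of GRCr8, from 250 bases before to 50 bases after the annotated start, matched 30 of the 37 members by symbol, among them 6 of the 8 members at an unadjusted p under 0.05. Both strands were searched for 6 motifs: the direct repeat of AGGTCA with 1 base between that PPAR and RXR bind (DR1), the estrogen-related receptor element TCAAGGTCA, the NRF1 palindrome, the box spelled CCAAT, the core element spelled TATAAA and the GC box spelled GGGCGG. DR1 was in 0 of the 30 windows, against 0.0538% of all 33469 windows, and TCAAGGTCA in 0, against 0.433%. Such exact matches are rare, and no match says only that these letters are not in the window. The NRF1 palindrome was in 1 window, that of Acad10, against 0.852% of all windows and 2.03% of those of tested symbols. CCAAT was in 11 of the 30 (36.7%), against 37.5% of all windows and 37.5% of the 7636 windows of tested symbols. The GC box was in 20 (66.7%), against 33.1% of all windows and 64.2% of those of tested symbols, and TATAAA in 2 (6.67%), against 14.2% and 6.33%. The member windows were thus near those of other tested symbols, also in their median GC content of 61.7% against 61.3%.

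The upstream 250 bases of Acads and Cpt2 are shown because they belong to the member with the largest difference and to the shuttle gene with the smallest p. The stretch shared by the windows of Hadha and Hadhb is shown because it lies between their annotated starts, and their ratio is given above. The genes run in opposite directions, with 300 bases between the starts, and neither start is in the stretch shown. Each is written 5′ to 3′ on the strand of the gene named first, and capitals mark matches to the motifs above on either strand (so a box on the other strand reads as its reverse complement). The regions are chr12:47154083-47154332 on the plus strand, chr5:127910819-127911068 on the minus strand and chr6:31907551-31907750, written on the plus strand, which is that of Hadha, all in GRCr8. The submitters' processing notes name another build, mRatBN7.2, so these positions do not belong to the deposited counts.
Acads: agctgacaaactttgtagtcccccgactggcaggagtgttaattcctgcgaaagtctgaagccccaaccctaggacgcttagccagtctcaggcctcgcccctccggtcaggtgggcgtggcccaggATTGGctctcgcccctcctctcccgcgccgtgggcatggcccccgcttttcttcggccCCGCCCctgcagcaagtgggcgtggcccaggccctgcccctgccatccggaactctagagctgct
Cpt2: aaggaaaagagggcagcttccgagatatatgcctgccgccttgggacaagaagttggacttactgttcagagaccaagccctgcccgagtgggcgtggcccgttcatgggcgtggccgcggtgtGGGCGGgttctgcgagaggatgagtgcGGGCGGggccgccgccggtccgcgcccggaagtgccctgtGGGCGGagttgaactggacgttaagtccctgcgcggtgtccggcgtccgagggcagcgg
Hadha and Hadhb: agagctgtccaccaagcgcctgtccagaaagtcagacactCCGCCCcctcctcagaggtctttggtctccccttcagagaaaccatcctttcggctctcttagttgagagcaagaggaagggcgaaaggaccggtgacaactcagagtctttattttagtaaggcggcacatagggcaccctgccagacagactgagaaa
The Acads stretch holds 1 CCAAT box and 1 GC box, the Cpt2 stretch 3 GC boxes, and the 200 bases shared by Hadha and Hadhb 1 GC box. GC boxes stood in all 3 stretches, and in 64.2% of the full windows of tested symbols. A link between these motifs and the levels was not tested.

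The members together took 2.64%, 2.89% and 2.85% of all counts in controls 1, 2 and 3 and 2.25%, 2.55% and 2.59% in the doxorubicin libraries in that order. The group means were 2.79% ± 0.134 and 2.46% ± 0.186 (SD, n = 3), and the groups did not overlap. Without Fabp3, which alone had up to 15164 counts in a library, the shares were 2.19%, 2.51% and 2.42% in controls and 1.99%, 2.18% and 2.27% after doxorubicin, and the groups overlapped.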

How the data were processed

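The values are raw counts of reads per gene, deposited by the authors for 6 heart libraries as 1 table. Per the submitters' processing notes, FastQC, Trimmomatic, STAR and HTSeq were used and the build was mRatBN7.2; the annotation, the counting mode and the use of strand are not given in the sources used here, so reads of overlapping genes may be shared (Fabp3, Slc27a1, Acaa1a and Acadvl overlap another symbol of the table in the GRCr8 gene list). Rows were summed per symbol, which left the members unaltered.

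Doxorubicin was compared with control over all 9205 symbols kept by filterByExpr (minimum count 10, minimum total count 15) with edgeR 4.0.16 in R 4.3.3: TMM factors, robust quasi-likelihood fits, treatment as the only term, Benjamini-Hochberg adjustment, threshold 0.05. The script was tested on simulated data. The SE is the absolute log2 fold change over the square root of F. Ratios within a library were compared by 2-sided exact permutation tests. Intervals and the limit of 3 counts cover counting error only. Alternatives used DESeq2 1.42.0 and limma 3.58.1 (voom). Figures and tables used Python 3.11.15, scipy 1.17.1 and matplotlib 3.10.9.

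The members, the steps and the wider lists were chosen with earlier results of these data known. Values per library are given for members with an unadjusted p under 0.05 and for the largest absolute log2 fold change of each step, and for others chosen after their values were seen; of the wider list, the 10 smallest unadjusted p-values are named.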

Additional observations from a re-analysis of the deposited data

How the results depend on the processing

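Alternatives were chosen with earlier results known; the gene span offset, alone and with the block, was added after seeing the data. The members' median log2 fold change stayed below 0 in all 17 alternative fits, at -0.19 with library size only and from -0.26 to -0.23 over the fits that each left out 1 library. Members past the adjusted threshold numbered 1 with DESeq2 and 1 with no filter (Acads), and 0 in the other 15 fits. Against 8 members lower at an unadjusted p under 0.05, there were 5 with library size only (2.46% of all symbols) and 1 to 9 over the fits that left out 1 library (2.65% to 4.5% of all symbols). The count was 6 with no filter (3.46% of all symbols), 10 with voom (4.26%), 11 with DESeq2 (3.77%) and 11 with the gene span offset (4.45%). 1 member was higher without overlap when control library 2 was left out. The share of all symbols higher without overlap was not taken in that fit, so this count cannot be set against it. Members lower without overlap numbered 11 to 17 over the fits without 1 library, in which the share of all symbols was 10.1% to 13.4%, up from 7.06%. Against 5 genes of all symbols and 1 of the wider list (Ucp3) past the adjusted threshold, DESeq2 gave 76 and 2, no filter 61 and 2, library size only 0 and 0, voom 0 and 0, the filter at a mean of 5 CPM 1 gene, non-robust dispersion 1 gene, the gene span offset 13 genes, and the fits without 1 library 0 to 35 and 0 to 1. At an unadjusted p under 0.05 library size only had 713 genes and voom 740. Etfa had a log2 fold change of -0.34 to 0.01 over the fits without 1 library, 0.01 being without doxorubicin library 2. The Etfa to Etfb difference was -0.08 and ranged from -0.30 to 0.19 without 1 library, being 0.19 without control library 2 and 0.02 without doxorubicin library 2; the Cpt1a share (-3.93 to -1.61 percentage points) and the Hadha to Hadhb ratio kept their direction. The causes were not tested.

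When replicate numbers entered as a block, 13 genes, 2 genes of the wider list (Ucp3 and Pdk4) and 0 members passed, and 5 members were lower at an unadjusted p under 0.05, against 3.05% of all symbols. With the block and the gene span offset 13 genes and 2 of the wider list passed. The labels do not say that equal numbers pair animals, and no sign of pairing was seen. The deviations of same-numbered libraries from their group means correlated at 0.020, -0.19 and -0.056, and 1 of 6 libraries correlated best with its own number. With 3 libraries per group, such correlations cannot exclude a shared cage, day or batch.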

Other observations

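Nearly all X-linked symbols of the deposited table carried no counts. Of 492 protein-coding symbols that the GRCr8 gene list places on it, 490 were listed at 0 in all 6 libraries, and the exceptions were Il13ra1 with 152 counts and Rpl39 with 1 count over all libraries. On the autosomes 2051 of 14492 protein-coding symbols were listed at 0 (14.2%). A lipid gene on chromosome X therefore cannot be read from this table, whatever its transcript level.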
